A study of Mus musculus with 380 samples.

Results

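The 9 genes described here are Aire, Fezf2, Prdm1, Hipk2, Sirt1, Chd4, Deaf1, Dnajc2 and Ehf, a set given by name with earlier results of these data known, among the 30324 genes counted in single thymic epithelial cells (TECs) of the mouse. Single-cell RNA-seq by the CEL-Seq2 method was deposited as 380 libraries of 96 cells, of which 378 libraries with 25154 cells of sufficient depth were used. Wild-type mice carried the C57BL/6 strain label and were sampled before birth (embryonic stage E16.5, 1 female), at birth (P0, 1 female), at 4 weeks (P28, 2 males and 2 females) and at 1 year (1 female), and Fgf7 transgenic mice were sampled at P28 (1 male and 1 female) and at 1 year (1 male). Per the study's methods the transgene expressed Fgf7 under Foxn1 control, that is in TECs themselves.

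All mice other than 1 wild-type and 1 transgenic male at P28 were barcoded, which here means that they also carried a guide RNA against Hprt, Foxn1-cre and a Cre-dependent Cas9 for lineage tracing. The non-barcoded transgenic male was labelled as coming from an FVB/N background crossed back to C57BL/6J, and its titles read wild type although its descriptions read transgenic. Thymi were digested, CD45 and Ter119 cells were depleted with beads, and CD45-EpCAM+ cells were sorted. Most libraries took all of these cells, here called unsorted, and others took only Ly51+ cells, a cortical surface label, or UEA1+ cells, a lectin label of the medulla. Each mouse was 1 sample, so that the E16.5, P0 and both 1 year groups rested on 1 mouse each.

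Aire and Fezf2 are transcriptional regulators through which medullary TECs (mTECs) transcribe genes that are otherwise restricted to peripheral organs, so that developing T cells meet these products in the thymus. Aire is made mainly in mature mTECs that present antigen through MHC class II, and its loss causes autoimmunity in mouse and human. Cortical TECs (cTECs), which support early T cell development and positive selection, normally lack Aire.

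Of the other genes, Sirt1 encodes a deacetylase that acts on Aire protein, Hipk2 encodes a nuclear kinase, and Chd4 encodes the remodelling ATPase of the NuRD complex. Prdm1 encodes the repressor Blimp1, Deaf1 encodes a DNA-binding protein of the same SAND-domain class as Aire, Dnajc2 encodes a ribosome-associated co-chaperone, and Ehf encodes an epithelial factor of the ETS family. In the GENCODE M21 annotation of GRCm38, Aire spans chr10:78030022-78043610 and Fezf2 spans chr14:12342094-12348189, both on the minus strand, and Sirt1 spans chr10:63319005-63381704 on the minus strand. Prdm1 (chr10:44437177-44528501), Hipk2 (chr6:38694390-38876165), Deaf1 (chr7:141297180-141327690), Dnajc2 (chr5:21757267-21785251) and Ehf (chr2:103263433-103303278) are also on the minus strand, and Chd4 (chr6:125095981-125130591) is on the plus strand. Aire, Hipk2 and Sirt1 each overlap a gene on the opposite strand, namely Dnmt3l, Tbxas1 and Gm16145, and counting was on the sense strand. Chd4 overlaps the small RNA genes Mir7045 and Gm23751 on its own strand, whose reads sense counting would not separate from those of Chd4.

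The promoters of Aire, Fezf2 and Sirt1 were searched because these genes were higher together in the same cells at P28, over windows of 250 bases before a RefSeq transcription start in GRCm38.p6. For Fezf2 and Sirt1 this start is internal to the GENCODE span given above, since GENCODE also has a transcript that begins further upstream. The windows of Aire and Sirt1 are shown 5′ to 3′ on the gene's strand. The 15 bases of the Sirt1 window that lie in an annotated Sirt1 exon are left out. Capitals mark matches to motifs searched on both strands. These are the CCAAT box by its own letters, the GC box as GGGCGG, and the TATA box as TATAAA. Another motif, the NF-kB site, had no match in the 3 windows and was in 0.14% of all promoter windows.
Aire, chr10:78043611-78043860 (minus): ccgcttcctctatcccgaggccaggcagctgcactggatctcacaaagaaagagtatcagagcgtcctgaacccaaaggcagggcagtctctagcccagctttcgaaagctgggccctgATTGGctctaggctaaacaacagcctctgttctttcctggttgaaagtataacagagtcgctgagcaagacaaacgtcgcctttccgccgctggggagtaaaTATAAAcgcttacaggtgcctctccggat
Sirt1, chr10:63339051-63339285 (minus): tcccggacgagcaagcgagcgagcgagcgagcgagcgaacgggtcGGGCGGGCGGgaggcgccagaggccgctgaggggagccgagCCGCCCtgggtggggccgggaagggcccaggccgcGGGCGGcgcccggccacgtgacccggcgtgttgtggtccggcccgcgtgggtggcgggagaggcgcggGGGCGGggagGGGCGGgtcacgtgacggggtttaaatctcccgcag
The Aire window held 1 CCAAT box on the opposite strand and 1 TATA box near its end. The Fezf2 window held 1 GC box, which lay in the 94 bases of that window inside an annotated Fezf2 exon. The Sirt1 window held 6 GC boxes, of which a pair overlapped. Of 32851 promoter windows of the same length, 33.8% held a CCAAT box, 32.7% a GC box and 12.4% a TATA box. A match describes the letters and not a bound site. Promoter windows were matched for 7 of the 9 genes.

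Unsorted samples held between 1055 and 5036 cells per mouse, with a median of 3110 to 10665 molecular barcodes per cell. Levels are given as CPM, the share of a gene in the summed transcripts of a sample scaled to 1e6. Epcam lay between 206.7 and 580.4 CPM in every unsorted sample of the 10 mice. Fgf7, the transgene's own gene, was at 47.4, 100.2 and 20.3 CPM in the 3 transgenic mice and at most at 6.31 CPM in wild type. A set of 4 libraries labelled Biological Replicate at P28 is given apart, because the labels do not say from which mouse they came. They were labelled male, yet Xist, the X-inactivation RNA of female cells, was at 382.3 CPM and in 77.2% of their cells, against 0.241 to 1.57 CPM in the unsorted cells of the wild-type P28 males. Xist was also in 9.29% of Ly51 cells and 3.01% of UEA1 cells of the non-barcoded wild-type male, against 1.91% of its unsorted cells and 41.98% to 68.9% of the cells of each sample of female mice. Whether the sorted and unsorted cells with that label came from 1 mouse is therefore in doubt, and results that rest on the pairing are also given without it.

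Aire and Fezf2 were low before birth and at birth and high at P28. Aire was at 29.8 CPM at E16.5, at 25.6 CPM at P0, and at 269.3, 296.8, 283.99 and 369.6 CPM in the non-barcoded male, the barcoded male, female A and female B at P28. Fezf2 was at 30.9 CPM at E16.5, at 38.4 CPM at P0, and at 644.3, 490.6, 783.4 and 593.2 CPM in the same 4 mice. Both early values thus lay far below all P28 mice for either gene. In an edgeR quasi-likelihood fit to the sums per mouse, the log2 fold change of E16.5 against P28 was -2.88 ± 0.58 (SE) for Aire, with an adjusted p of 0.0116, and -3.80 ± 0.68 for Fezf2, with an adjusted p of 0.00848. P0 differed from P28 by -3.20 ± 0.59 for Aire (edgeR adjusted p = 0.0188) and by -3.59 ± 0.67 for Fezf2 (edgeR adjusted p = 0.0198). In such sums, fewer cells with a transcript and less RNA per cell cannot be told apart, and the single-cell values below give the shares.

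Ehf also rose with age, from 5.53 CPM at E16.5 and 11.02 CPM at P0 to 154.7, 104.5, 84.97 and 64.3 CPM in the same order of P28 mice. The fold change was -3.51 ± 0.44 for E16.5 (edgeR adjusted p = 0.00317) and -2.62 ± 0.41 for P0 (edgeR adjusted p = 0.0127). Dnajc2 went the other way at E16.5, with 98.1 CPM against 59.1 to 85.7 CPM at P28 (log2 fold change 0.87 ± 0.23, edgeR adjusted p = 0.0289). This call was lost without the protocol term and without the barcoded male, female A or female B at P28 (0.80 to 0.92). Sirt1 lay at 58.2 CPM at E16.5 and at 54.3 CPM at P0, below the 166.1, 311.7, 196.9 and 176.03 CPM of the P28 mice, yet it was not called (edgeR adjusted p = 0.133 and 0.130). It was called lower at both ages with DESeq2, with barcoded mice only, and without either non-barcoded male or the transgenic female (-1.77 to -1.51 at E16.5 and -1.90 to -1.69 at P0). Prdm1 was at 1.10 CPM at E16.5 and at 4.69 CPM at P0, and the P28 mice spanned 4.47 to 10.5 CPM.

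Of the 9 genes, 3 were called lower and 1 higher at E16.5, against 15.4% and 14.5% of the 22415 genes tested. At P0, 3 were called lower and 0 higher, against 7.90% and 5.88% of genes. Hipk2, Chd4 and Deaf1 were called at neither age. Without the transgenic female, Chd4 at E16.5 (0.68) and Dnajc2 at P0 (0.69) were called higher, and Prdm1 at E16.5 was called lower in 4 settings, namely without that female, without either non-barcoded male and with barcoded mice only (-2.38 to -2.23). The P0 calls of Aire and Fezf2 were lost without the barcoded P28 male or without the protocol term of the fit, with log2 fold changes of -3.29 to -3.16 for Aire and -3.75 to -3.64 for Fezf2, and Ehf at P0 was lost without the protocol term.

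**Figure D1:**
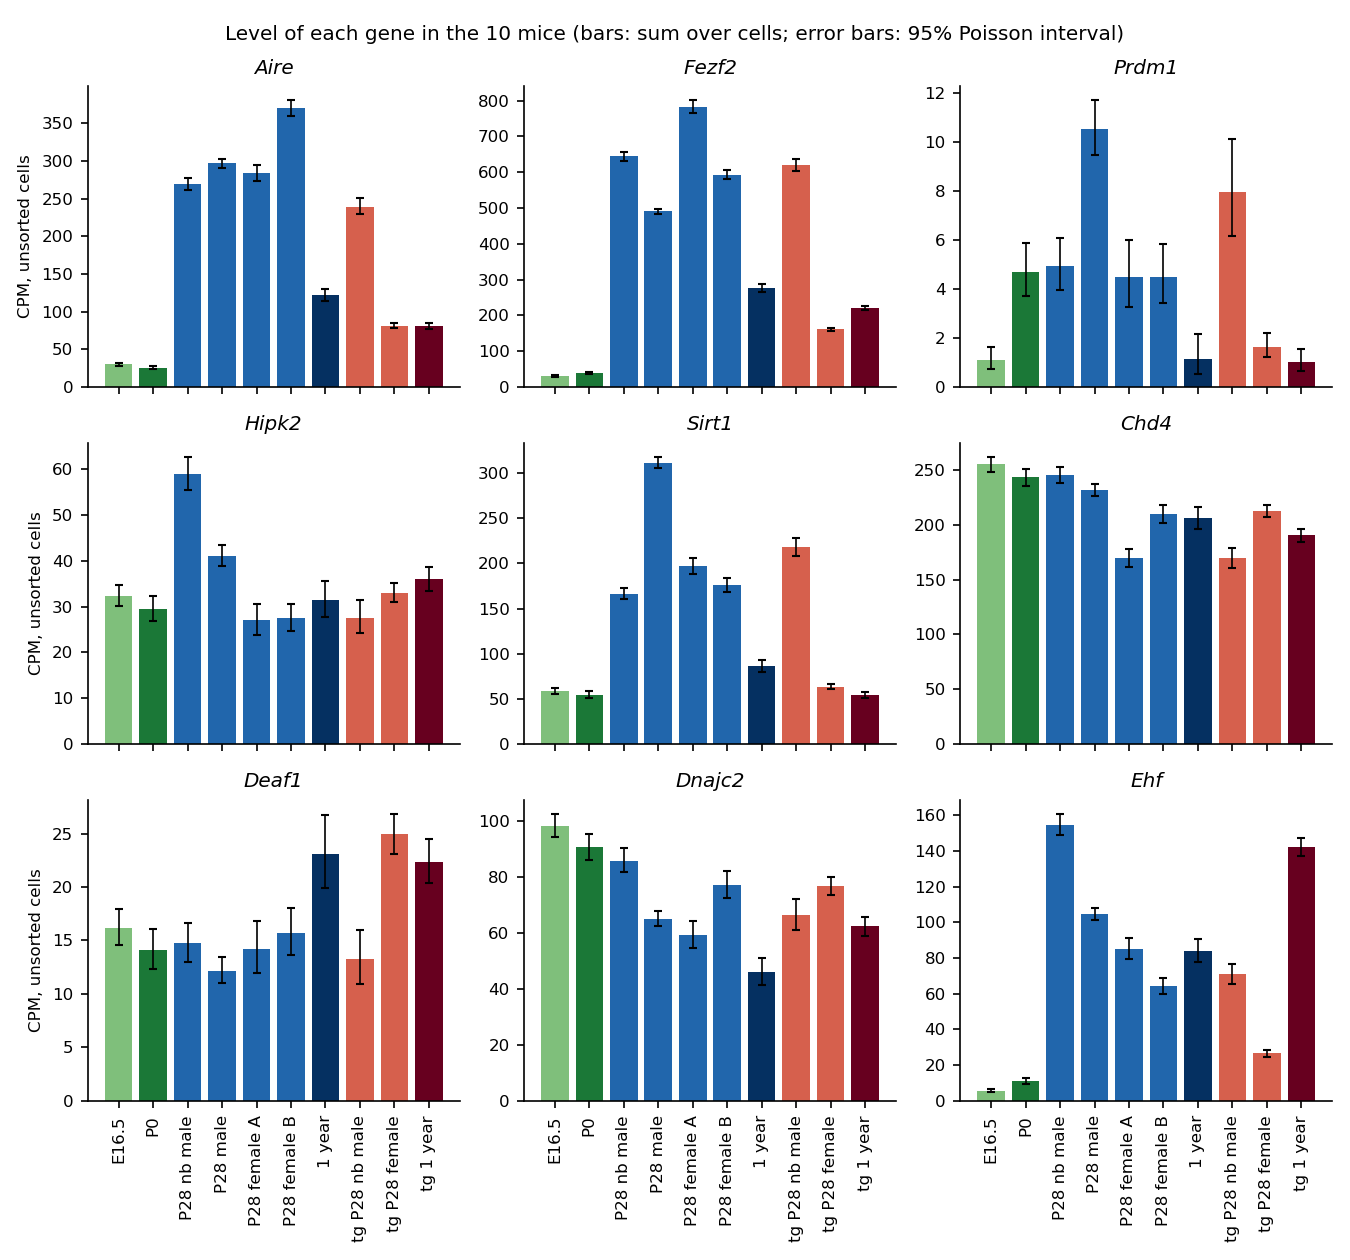
Bars give the CPM of each gene in the unsorted cells of the 10 mice, with 95% Poisson intervals for counting error (nb, non-barcoded; tg, Fgf7 transgenic). Aire, Fezf2 and Ehf are low at E16.5 and P0, whereas Chd4 lies between 169.9 and 255.3 CPM throughout.

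A list of genes for proteins of peripheral organs, called tissue-restricted antigens, was also mostly lower at E16.5. Of 28 tissue-restricted antigens tested, 21 were called lower and 0 higher at E16.5, with a median log2 fold change of -5.23 against -0.26 over all genes, of which 15.4% were called lower. As 7 of the 28 were at 0 there, the median was -4.08 when these were set to the floor of 3 counts. The insulin gene Ins2 was at 0.044 CPM at E16.5 and at 1.74 to 10.5 CPM in the P28 mice. The casein gene Csn2 changed by -5.38 ± 1.22 (edgeR adjusted p = 0.0169), the antimicrobial lectin gene Reg3g by -5.22 ± 0.37 (edgeR adjusted p = 0.00129) and the C-reactive protein gene Crp by -3.29 ± 0.36 (edgeR adjusted p = 0.00236). At P0, 9 of 28 were called lower and 0 higher, with a median of -3.20, or -3.02 with 4 antigens at the floor, against -0.23 and 7.90% of all genes called lower.

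Genes for proteins that work with Aire or Chd4 did not share this fall. Of 12 NuRD genes beside Chd4, 10 were called higher and 0 lower at E16.5, and of 20 genes for Aire-binding and transcription proteins, 8 were called higher and 0 lower, where 14.5% of all genes were called higher. Of 16 genes of mTEC maturation, which cover RANK and CD40 signalling and antigen presentation, 10 were called lower and 1 higher. At P0 the counts were 1 higher and 0 lower for NuRD, 2 and 0 for the Aire-binding list and 2 and 3 for maturation, where 5.88% of all genes were called higher and 7.90% lower. The summed level of 10 cTEC markers was 13050 CPM at E16.5 and 28249 CPM at P0, against 1925 to 9491 CPM in the P28 mice, and that of 6 proliferation markers was 1462 CPM at E16.5 and 563.9 CPM at P0, against 293.1 to 481.9 CPM. Their part in these results was not tested.

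The share of cells with an Aire transcript followed the same ages. To compare depths, each cell was thinned to 1500 molecular barcodes and shallower cells were left out. Aire was then found in 20.1% ± 4.4 of unsorted cells at P28 (SD, n = 4 mice), ranging from 14.3% to 24.9%. At E16.5 it was found in 49 of 2540 cells (1.93%, exact 95% binomial interval 1.43% to 2.54%) and at P0 in 28 of 1356 cells (2.06%, 1.38% to 2.97%). These intervals lay below every P28 mouse. Unthinned, the shares were 6.53% at E16.5, 7.001% at P0 and 31.99% ± 3.1 at P28. Fezf2 was found in 45.02% ± 7.7 of cells at P28, in 3.46% at E16.5 and in 3.98% at P0.

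cTEC-like clusters, which should lack Aire, gave the background. Among their unsorted cells, Aire was found in 1 of 408 thinned cells at E16.5 (0.245%) and in none at P0, where a count of 0 limits the share of cells with an Aire molecular barcode to 0.802% (3 counts). At P28 it was found in 0 of 28 such cells of the non-barcoded male, and in 2.38%, 3.06% and 3.25% of those of the barcoded male, female A and female B. The median depth of these cells was 7756 molecular barcodes at E16.5 and 6012 to 14320 in the P28 mice, against 8181 over all cells at E16.5 and 3366 to 9823 over all cells of the P28 mice. The E16.5 and P0 shares of Aire over all cells lay within the range of the P28 cTEC-like cells, and above that of cTEC-like cells of their own age. Fezf2 was found in 3.57%, 18.5%, 32.7% and 14.6% of the unsorted cTEC-like cells of the 4 P28 mice, in 2.45% at E16.5 and in 1.87% at P0. In Ly51-sorted cTEC-like cells at P28 the shares were 0% to 1.33% for Aire and 0% to 4% for Fezf2.

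Aire and Fezf2 were lower at 1 year than in each of the 4 wild-type P28 mice, without passing the test. Aire was at 122 CPM and Fezf2 at 277 CPM in the 1 year wild-type mouse. The log2 fold change was -1.09 ± 0.51 for Aire (edgeR adjusted p = 0.416) and -0.89 ± 0.55 for Fezf2 (edgeR adjusted p = 0.535). Sirt1 was at 85.8 CPM and Prdm1 at 1.14 CPM, both also below all wild-type P28 mice, whereas Deaf1, at 23.1 CPM, was above the 12.2 to 15.7 CPM of P28. None of the 9 genes was called, where 0.406% of genes were called higher and 0.00892% lower. At an unadjusted p under 0.05, 2867 genes passed, and DESeq2 called 411 higher and 294 lower. Aire was called lower in 4 other settings, with log2 fold changes of -1.32 to -1.22: in barcoded mice alone, without the non-barcoded wild-type male, and without either transgenic P28 mouse. Markers of other cells stood apart in this mouse. The summed level of 4 parathyroid markers was 25923 CPM against 593.5 to 933.8 CPM in the P28 mice, that of 6 neuroendocrine markers 8996 against 335.8 to 553.2 CPM, and that of 6 fibroblast markers 1630 against 115.8 to 280.4 CPM, and their part in these results was not tested. After thinning, Aire was found in 97 of 1408 cells (6.89%) and Fezf2 in 23.4% of cells at this age.

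The 2 Fgf7 transgenic mice at P28 did not resemble each other. Aire was at 239.5 CPM in the non-barcoded male and at 81.2 CPM in the barcoded female, against 269.3 to 369.6 CPM in wild type. Fezf2 was at 620.9 and 161.2 CPM, Sirt1 at 217.9 and 63.2 CPM, and Ehf at 70.9 and 26.5 CPM in the same order. Fezf2, Sirt1 and Ehf of the transgenic male thus lay within the wild-type range, while all 4 genes of the transgenic female lay below it. The log2 fold change against wild type was -1.01 ± 0.43 for Aire (edgeR adjusted p = 0.367), -0.95 ± 0.48 for Fezf2 (edgeR adjusted p = 0.440) and -1.27 ± 0.29 for Ehf (edgeR adjusted p = 0.127).

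None of the 9 genes was called between genotypes, where 0.576% of genes were called higher and 0.0848% lower. A total of 3001 genes passed at an unadjusted p under 0.05, and DESeq2 called 859. Without the transgenic non-barcoded male, without its wild-type counterpart, or in barcoded mice alone, Aire, Fezf2, Sirt1 and Ehf were called lower, with log2 fold changes of -1.90 to -1.79 for Aire, -1.89 to -1.78 for Fezf2, -1.80 to -1.69 for Sirt1 and -1.62 to -1.29 for Ehf. DESeq2 also called Ehf, and Deaf1 was called higher without the non-barcoded wild-type male (1.01). The 2 transgenic mice differed from each other in sex, strain label, barcoding and library protocol, and these cannot be told apart. The summed cTEC markers were at 3707 CPM in the transgenic male and at 22455 CPM in the transgenic female, and their part in the difference was not tested.

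Ehf was higher with age in transgenic mice. It was at 142.1 CPM in the transgenic mouse at 1 year, above both transgenic P28 mice (log2 fold change 2.19 ± 0.39, edgeR adjusted p = 0.0480). This was the only call among the 9 genes, 1 higher and 0 lower, against 0.576% of genes higher and 0.491% lower. It was lost without the protocol term, on molecular barcodes in place of transcripts, and without the barcoded male, female A, female B or the transgenic female of P28 (1.504 to 2.26). Markers of the cell classes with the highest Ehf at P28 moved with it. The summed level of 8 Tuft markers was 260.7 CPM in the old transgenic mouse against 180.7 and 70.9 CPM in the transgenic male and female of P28, that of 8 keratinized late mTEC markers 461.04 against 285.1 and 91.3 CPM, and that of 6 microfold markers 1986 against 484.6 and 268.5 CPM. The Tuft-like class itself held 0.640% of unsorted cells in the old transgenic mouse, against 2.46% and 0.370% in the transgenic male and female of P28. The part of these markers and cells in the change of Ehf was not tested. Aire was at 80.6 CPM and Fezf2 at 220.9 CPM in the old transgenic mouse. Without the transgenic female, which leaves the non-barcoded male as the only transgenic P28 mouse, Aire (-1.96) and Sirt1 (-2.64) were called lower at 1 year. The change from P28 to 1 year did not differ between genotypes by a test of the difference itself for any of the 9 genes, including Ehf (2.03 ± 0.52, edgeR adjusted p = 0.369), where 0.00446% of genes were called higher, 0.0268% lower and 1523 passed at an unadjusted p under 0.05.

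**Figure D2:**
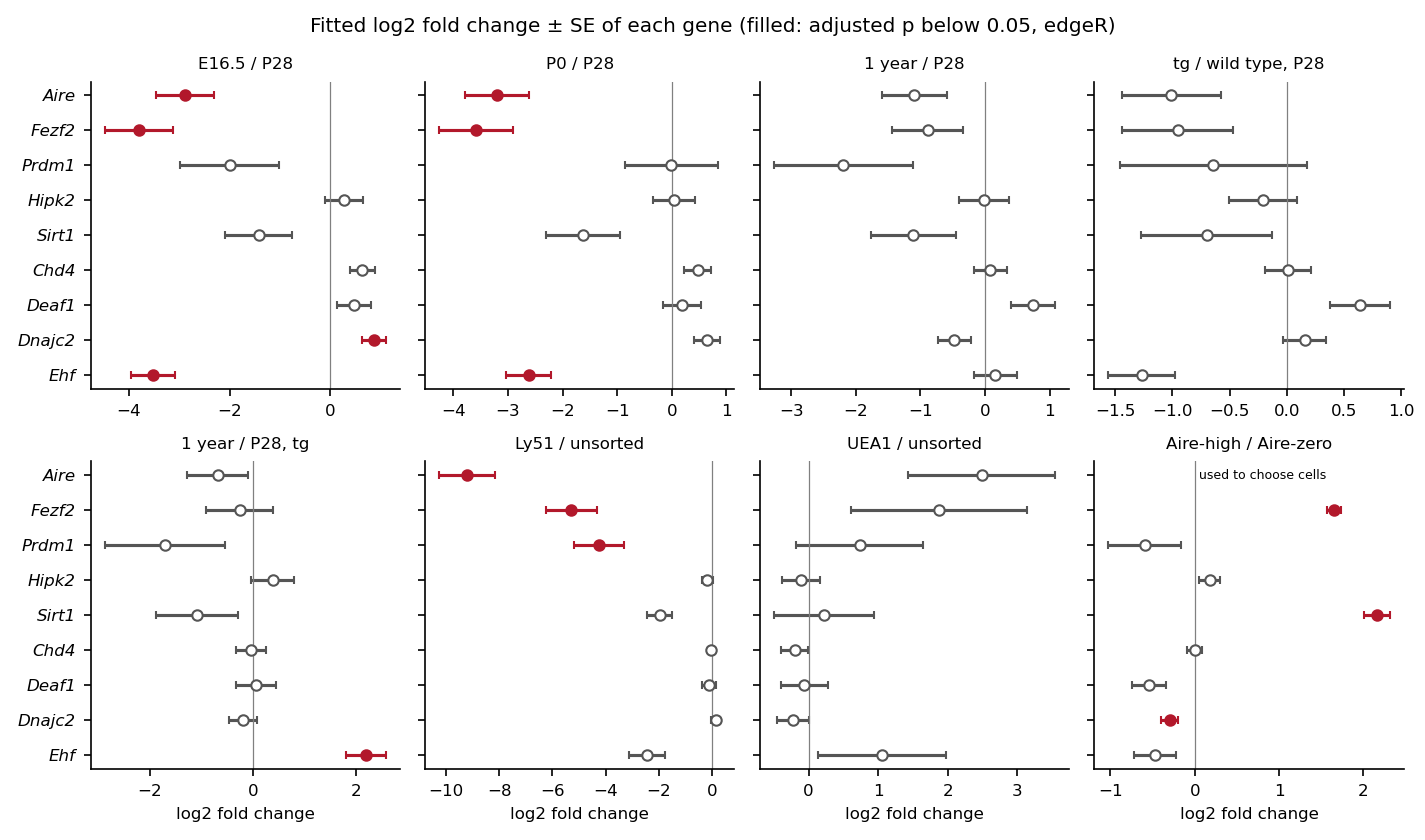
Points give the fitted log2 fold change of each gene in each comparison, with the SE, and filled points passed an edgeR adjusted p of 0.05. The positions of Aire and Prdm1 in Ly51 cells depend on the prior count and show direction only. Aire and Fezf2 lie to the left at E16.5, P0 and in Ly51 cells, and Fezf2 and Sirt1 lie to the right in Aire-high cells.

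The sorted cells placed the genes in the thymus. Aire was at 0 CPM in Ly51 cells of the 1 year mouse and of the non-barcoded male, and at 0.742 and 0.862 CPM, 2 molecular barcodes each, in those of females A and B. The same mice had 122.1 to 369.6 CPM in unsorted cells, so that the groups were far apart. Fezf2 was at 34.8, 9.40, 3.71 and 14.7 CPM in these Ly51 samples, against 276.6 to 783.4 CPM. With mouse as a block, 3 of the 9 genes were called lower, against 5.03% of the 17569 genes tested, and 0 higher, against 1.5%. They were Aire (edgeR adjusted p = 0.0169), Fezf2 (log2 fold change -5.29 ± 0.96, edgeR adjusted p = 0.0344) and Prdm1 (edgeR adjusted p = 0.0454). The fold of Aire and Prdm1 is not given, since it depends on the prior count where values are at or near 0. All 3 calls were lost without female A, without female B or without the 1 year mouse, where no gene at all was called, although the direction stayed. Without the non-barcoded male, whose Ly51 cells held Xist, all 3 were called (edgeR adjusted p = 0.000119 for Aire, 0.00447 for Fezf2 and 0.0208 for Prdm1), as were 3615 genes in all.

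Sirt1 was at 28.2 to 42.3 CPM in Ly51 cells against 85.8 to 196.9 CPM in the same mice unsorted (-1.96 ± 0.47, edgeR adjusted p = 0.0542). Ehf was at 57.8, 17.9, 7.05 and 7.34 CPM in Ly51 cells (-2.44 ± 0.66, edgeR adjusted p = 0.0676). Both missed the threshold, and both were called lower with DESeq2, without a filter on low counts, without the non-barcoded male and without the P0 mouse, which has no Ly51 cells (-2.06 to -1.91 for Sirt1, which was also called without the mouse block, and -2.51 to -2.26 for Ehf). Chd4 (194.2 to 223.9 CPM), Dnajc2 (37.6 to 103.4 CPM), Deaf1 and Hipk2 had fitted changes between -0.17 and 0.16.

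UEA1 cells were unlike in the 2 mice that had them. At P0, Aire was at 676.9 CPM in UEA1 cells against 25.6 CPM unsorted, and Fezf2 at 586.1 against 38.4 CPM. Ehf was at 73.4 against 11.02 CPM and Sirt1 at 199.4 against 54.3 CPM in the same mouse. At P28, UEA1 cells of the non-barcoded male had 304.4 CPM of Aire against 269.3 CPM unsorted, 534.4 CPM of Fezf2 against 644.3 CPM, and 56.04 CPM of Sirt1 against 166.1 CPM. The enrichment seen at birth was thus not seen in the P28 mouse. The unsorted cells it is measured against also differed. The Aire-stage medullary class described below held 1.47% of them at P0 and 19.4% of those of the P28 male. Its part in this contrast was not tested. None of the 9 genes was called, nor was any of the 17569 (0%), although 1058 passed at an unadjusted p under 0.05 and DESeq2 called 49. Without the P28 male, which leaves the P0 mouse as the only UEA1 sample and assumes that it varies like the Ly51 pairs, the fitted changes were 4.61 for Aire and 1.76 for Sirt1, both called higher. After thinning, Aire was found in 47.1% of UEA1 cells at P0 (exact 95% binomial interval 42.3% to 51.8%) and in 11.4% at P28 (7.73% to 16.1%).

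Within the P28 data, cells were clustered without the 9 genes, and clusters were named from marker lists only where 1 list clearly led, a rule made stricter after seeing the data, so that over all ages 16.54% to 79.05% of the unsorted cells of a mouse stayed unnamed. Levels by cluster are of unsorted and sorted cells of a mouse together, and values for unsorted cells alone, also added after seeing the data, are given where they differ. Aire was highest in cluster 8, an Aire-stage mTEC-like cluster led by S100a8, Pyy and Hdc, at 947 ± 71.2 CPM (SD, n = 4 mice). It was at 417.5 ± 81.8 CPM in cluster 1, a second Aire-stage mTEC-like cluster led by Ccl22, and at 281.8 ± 56.3 CPM in proliferating-like cells. The ranges of clusters 8 and 1 did not overlap. Those of cluster 1 and the proliferating-like cells did, but not in unsorted cells alone, where they were 332.9 to 536.8 and 244.99 to 298.2 CPM. Within each mouse Aire was higher in cluster 1 than in the proliferating-like cells. It was at 90.8 ± 64.4 CPM in Tuft-like and at 7.97 ± 4.19 CPM in cTEC-like cells, or 14.1 ± 5.69 CPM in those that were unsorted.

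Fezf2 was highest in the same cluster 8, at 1217 ± 267.99 CPM, and then in cluster 1, at 849.1 ± 231.1 CPM. The ranges overlapped between mice, but within each mouse Fezf2 was higher in cluster 8. It stayed at 801.7 ± 180.96 CPM in proliferating-like cells and at 398.7 ± 144.2 CPM in the Ccl21a mTEC-like class, where Aire was at 32.7 ± 15.4 CPM. Its spread over clusters was thus broader than that of Aire. Sirt1 was at 456.98 ± 136.5 CPM in cluster 8 and at 421.5 ± 106.6 CPM in cluster 1, and at most at 176.4 ± 86.1 CPM in any other cluster held by several mice. The lowest mouse of both Aire-stage clusters lay above the highest mouse of each of these others.

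Ehf and Prdm1 had their highest levels elsewhere. Ehf was at 529.5 ± 38.9 CPM in Tuft-like cells, at 246.99 ± 22.96 CPM in keratinized late mTEC-like cells, and at 91.3 ± 10.8 CPM in the Aire-stage class, with no overlap between these 3. It was at 9.12 ± 6.20 CPM in cTEC-like cells. Prdm1 was at 38.1 ± 36.9 CPM in keratinized late mTEC-like cells, with a range of 11.3 to 92.5 CPM, and at 7.19 ± 2.56 CPM in the Aire-stage class. Deaf1 was at 10.2 ± 0.84 CPM in the Aire-stage class and at means of 16.97 to 27.1 CPM in the other 4 named classes compared, and its highest mouse in the Aire-stage class (11.1 CPM) lay below the lowest of each of them (12.6 CPM or more). In unsorted cells alone the keratinized late class reached down to 9.48 CPM and overlapped it. The ranges of Chd4, Hipk2 and Dnajc2 overlapped between all 5 classes in unsorted cells.

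**Figure D3:**
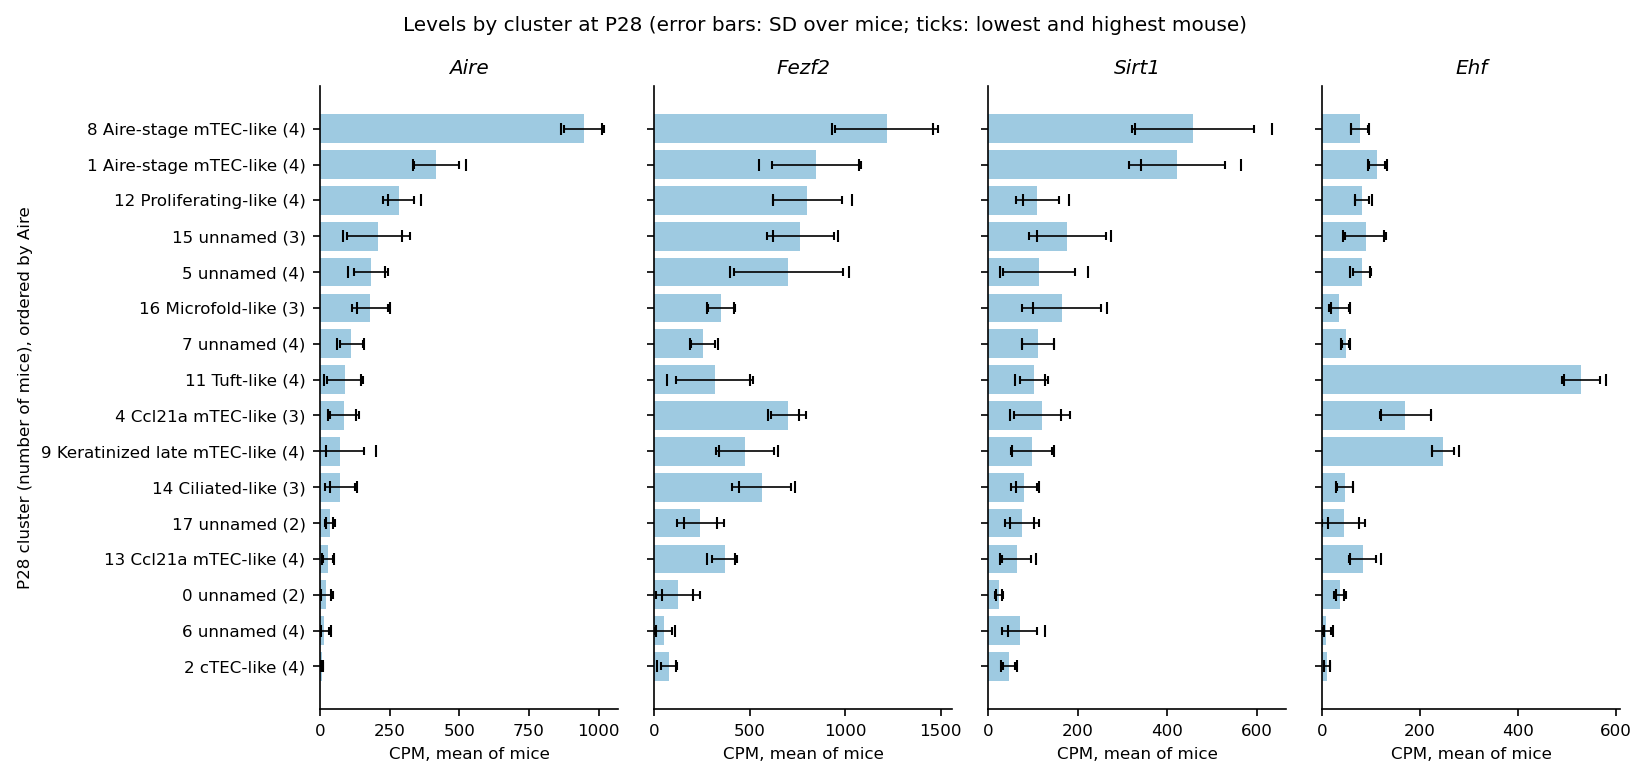
Bars give the mean CPM of Aire, Fezf2, Sirt1 and Ehf in the 16 P28 clusters held by at least 2 mice, unsorted and sorted cells together, with the SD over mice and ticks for the lowest and highest mouse. Aire and Sirt1 are concentrated in clusters 8 and 1, Fezf2 is spread more widely, and Ehf peaks in the Tuft-like cluster.

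Over these 16 clusters, the genes whose log2(CPM + 1) followed Aire most closely were Grin2c (Pearson r = 0.967), Insm1 (0.934), Il23a (0.929), Cdx1 (0.923) and Slc6a7 (0.921), among 12630 genes. Those closest to Fezf2 were Pdlim4 (0.972), Gm13305 (0.961), Htr7 (0.954), Icosl (0.944) and C1qtnf6 (0.936). Sirt1 ranked 32 and Fezf2 42 in likeness to Aire, with r = 0.878 and 0.867. These are descriptions over clusters of the same mice, which share libraries, and no test was made.

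The Aire-stage class held a smaller share of cells at P0, at 1 year and in the transgenic female than in every wild-type P28 mouse. It held 19.4% to 31.7% of unsorted cells in the P28 mice, 1.47% at P0 (20 of 1357 cells) and 8.15% at 1 year. In the transgenic P28 mice it held 28.4% of the male's and 9.21% of the female's cells. Within the class, Aire was at 635.9 to 868.5 CPM in the P28 mice, 994.96 CPM at P0, 737.4 CPM at 1 year, and 559.2 and 777.4 CPM in the transgenic male and female. A further P0 cluster of 125 cells stayed unnamed, led by the haemoglobin genes Hbb-bt and Hbb-bs, with Aire at 638.3 CPM and in 55.6% of its thinned cells, and Fezf2 at 545.8 CPM. It held 0.811% of the unsorted P0 cells (11 cells), so that the P0 share of the class depends on the naming. At P0 most cells of the class were UEA1-sorted, and its 20 unsorted cells had 719.9 CPM of Aire and 800.1 CPM of Fezf2. Fezf2 within the class was at 805.7 to 1303 CPM at P28, 843.3 CPM at P0, 1003 CPM at 1 year, and 1277 and 894.02 CPM in the transgenic mice. Clusters were found separately for every age and genotype, and these values were not tested.

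Neither E16.5 nor the old transgenic mouse had a cluster named Aire-stage. At E16.5 Aire peaked at 306.1 CPM in cluster 9, led by Insm1, Mt2 and Utf1 beside Aire itself, in which Fezf2 was at 183.7 CPM. In the transgenic mouse at 1 year it peaked at 664.005 CPM in cluster 0, led beside Aire by Csn2, Ccl22 and Insm1, with Top2a among its leading genes and Fezf2 at 1031 CPM. In that mouse 8.97% of cTEC-like cells held Aire, against 0% to 3.25% of the unsorted cTEC-like cells of the other mice. That cluster, led by Prss16, Ccl25 and Tbata, had 74.1 CPM of Aire and 381.4 CPM of Fezf2, found in 36.3% of its cells. The mouse had 2253 CPM of summed cTEC markers, and whether the cluster mixes cell types was not tested.

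Aire and Fezf2 were often found in the same cells at P28. Cells were thinned to 3000 molecular barcodes here, and shallower cells were left out. Of Aire-stage cells, 54.6% ± 3.7 held both, 26.6% ± 3.6 held Fezf2 alone, 10.2% ± 3.8 held Aire alone and 8.49% ± 3.03 held neither (SD, n = 4 mice). Over all cells, 80.8% ± 4.5 of cells with Aire also held Fezf2, against 53.8% ± 8.4 of the cells without Aire. Within the Aire-stage class the shares were 84.3% ± 5.7 and 75.8% ± 8.4. Their ranges overlapped between mice, but within each of the P28 mice the share was higher in cells with Aire. In the class at 1 year the shares were 82.3% and 80%. At E16.5, 25 of the 92 cells with Aire also held Fezf2 (27.2%), against 5.79% of the cells without Aire, and at P0 15 of 43 did (34.9%), against 5.39%. At 1 year it was 69.3% against 34.6%. In the transgenic male and female at P28 and the transgenic mouse at 1 year it was 82.95%, 68.2% and 69.9%, against 39.1%, 19.97% and 23.5%. Fezf2 was thus found in a larger share of cells with Aire than of cells without it in all 10 mice.

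To set the genes against the Aire level of single cells, P28 cells were divided by their Aire molecular barcodes after thinning to 3000, into Aire-zero cells (0), Aire-low cells (1 or 2) and Aire-high cells (3 or more). Cells with fewer than 3000 molecular barcodes were left out. This kept 2660 of 5036 cells of the barcoded male and 1313 of 1413 cells of the non-barcoded male. Aire-high cells were 11.7% ± 3.3 of the cells kept and Aire-low cells 17.4% ± 3.9. Aire itself chose the cells and is not tested. As 0 refers to the thinned cells, Aire-zero cells were not free of Aire, and held 39.9 ± 2.5 CPM of it over all their transcripts, against 1493 ± 82.3 CPM in Aire-high cells. Of Aire-high cells, 88.6% ± 2.4 lay in the Aire-stage clusters, against 61.4% ± 7.0 of Aire-low and 16.3% ± 4.8 of Aire-zero cells, so that a difference between them includes the difference between cell types.

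Fezf2 and Sirt1 were higher in Aire-high than in Aire-zero cells. Fezf2 was at 445.6, 318.6, 525.8 and 333.7 CPM in Aire-zero cells of the non-barcoded male, the barcoded male, female A and female B, and at 1340, 986.5, 1675 and 1047 CPM in their Aire-high cells. The groups did not overlap and the log2 fold change was 1.65 ± 0.08 (edgeR adjusted p = 3.19e-07). Sirt1 was at 75.3, 191.98, 116.7 and 91.2 CPM in Aire-zero cells and at 553.1, 761.5, 461.4 and 298.4 CPM in Aire-high cells (2.16 ± 0.15, edgeR adjusted p = 2.34e-06). By their means Aire-low cells were between, at 1014 ± 166.1 CPM for Fezf2 and 356.9 ± 73.6 CPM for Sirt1. In female B, however, Sirt1 in Aire-high cells lay below the lowest Aire-low value of the 4 mice (300.7 CPM). Both genes were higher in Aire-high than in Aire-zero cells in 10 of 10 mice of all ages and genotypes, although there were only 20 Aire-high cells at E16.5 and 11 at P0.

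Dnajc2 was slightly lower in Aire-high cells, at 61.03 ± 9.7 against 75.4 ± 13.4 CPM (-0.30 ± 0.10, edgeR adjusted p = 0.0384), a call that was lost without any 1 of the 4 mice (it was -0.36 to -0.09 over the 8 settings that lost it). Deaf1, at 10.9 ± 2.9 against 15.5 ± 2.2 CPM, missed the threshold (edgeR adjusted p = 0.0509) and was called lower without female A and in 3 other settings (-0.75 to -0.64). Chd4 was at 213.98 ± 33.3 against 215.8 ± 32.5 CPM, with a change of -0.00034 ± 0.09. Hipk2, Ehf and Prdm1 were not called, although Ehf was called lower without a filter on low counts and without thinning. Of the 8 genes tested, 2 were called higher, against 21% of the 15094 genes tested, and 1 lower, against 20.3%.

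**Figure D4:**
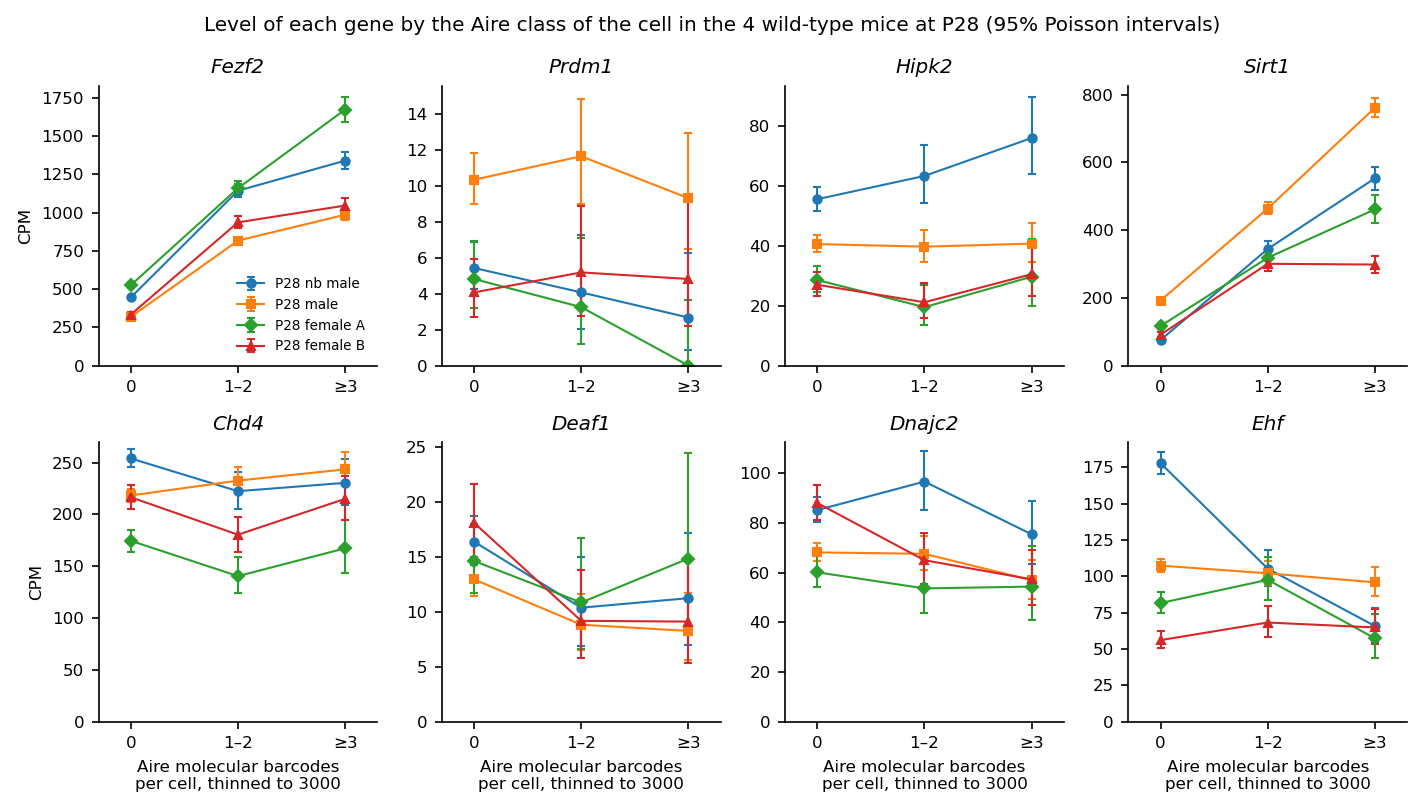
Lines join the CPM of each gene in cells with 0, with 1 or 2 and with 3 or more Aire molecular barcodes in the 4 wild-type P28 mice, with 95% Poisson intervals. Fezf2 and Sirt1 are higher at 3 or more than at 0 in all 4 mice, and Chd4 stays between 140.4 and 253.9 CPM. Sirt1 of female B does not rise from 1 or 2 to 3 or more.

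The same division was repeated within the Aire-stage clusters alone, a choice made after seeing the data. The Aire-zero cells of these clusters held 144.7 ± 44.5 CPM of Aire, and the Aire-high cells 1548 ± 144.6 CPM. Fezf2 remained higher in Aire-high cells, at 1265 ± 314.8 against 886.6 ± 265.4 CPM (0.60 ± 0.09, edgeR adjusted p = 0.000797), and Sirt1 at 547.2 ± 203.4 against 324.6 ± 102.4 CPM (0.80 ± 0.15, edgeR adjusted p = 0.00351). Beside the 1.65 and 2.16 over all cells these values were smaller, and the difference was not tested. Ehf was lower, at 72.3 ± 15.2 against 113.1 ± 12.5 CPM (-0.55 ± 0.13, edgeR adjusted p = 0.0150). Dnajc2 turned to 0.08 ± 0.13 (edgeR adjusted p = 0.746). Here 2 of 8 genes were called higher and 1 lower, against 9.35% and 8.82% of the 13022 genes tested.

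The Aire-high and Aire-zero cells of the class also differed in cluster. Cluster 8 held 80.6% ± 1.1 of the Aire-high and 37.6% ± 7.8 of the Aire-zero cells of the class, and cluster 1 the others. Inside cluster 8, Fezf2 was at 1301 ± 298.8 CPM in Aire-high and 1021 ± 327.1 CPM in Aire-zero cells, with overlapping ranges, and was higher in 3 of 4 mice, the exception being the non-barcoded male (1365 against 1444 CPM). Inside cluster 1 it was at 1075 ± 431.6 against 764.6 ± 205.5 CPM and higher in 4 of 4 mice. Sirt1 was higher and Ehf lower in Aire-high cells in 4 of 4 mice inside either cluster. Sirt1 was at 520.3 ± 183.5 against 351.5 ± 123.8 CPM in cluster 8 and at 690.8 ± 374.2 against 289.1 ± 111.9 CPM in cluster 1. These values by cluster, added after seeing the data and with as few as 16 cells, were not tested.

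Tissue-restricted antigens were mostly higher in Aire-high cells. Of 25 tested, 16 were called higher and 2 lower over all cells, against 21% and 20.3% of all genes, with a median log2 fold change of 1.40 against -0.05 over all genes. The glutamate decarboxylase gene Gad1 (3.39 ± 0.19, edgeR adjusted p = 4.79e-07), S100a8 (3.11 ± 0.20, edgeR adjusted p = 1.12e-06), the thyroglobulin gene Tg (2.36 ± 0.31, edgeR adjusted p = 0.000147) and the casein gene Csn2 (2.09 ± 0.22, edgeR adjusted p = 3.11e-05) were among those higher. Crp (-0.67 ± 0.20, edgeR adjusted p = 0.0214) and the transthyretin gene Ttr (-1.65 ± 0.55, edgeR adjusted p = 0.0326) were lower. The summed level of the 28 antigens measured was 1239 ± 235.7 CPM in Aire-zero, 2753 ± 446.5 CPM in Aire-low and 3321 ± 205.3 CPM in Aire-high cells. Csn2 alone made up 446.4, 1365 and 1679 CPM of these sums, so that they rest largely on 1 gene.

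Within the Aire-stage clusters, 4 of 24 antigens tested were called higher and 5 lower, against 9.35% and 8.82% of all genes, with a median of -0.18 against -0.01 over all genes. Gad1 (1.56 ± 0.18, edgeR adjusted p = 0.000171), S100a8 (1.17 ± 0.17, edgeR adjusted p = 0.000842), S100a9 and Maoa were higher. Reg3g (-1.25 ± 0.12, edgeR adjusted p = 8.96e-05), Fabp9 (-1.82 ± 0.34, edgeR adjusted p = 0.00361), Fabp2, Resp18 and Ttr were lower. Antigens such as Pck1 and Tff3 that were higher over all cells had values of -0.72 ± 0.41 and -0.52 ± 0.37 within these clusters, and were not called. Neither these antigens nor the lists below were separated by cluster. Cluster 8, of which S100a8 was a leading gene, held 80.6% ± 1.1 of the Aire-high and 37.6% ± 7.8 of the Aire-zero cells of the class. The part of this in the values was not tested.

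The mTEC maturation genes moved with Aire. Of 16, 15 were called higher and 1 lower over all cells, against 21% and 20.3% of all genes, among them the costimulatory gene Cd80 (2.28 ± 0.22, edgeR adjusted p = 1.45e-05), Cd40 (1.66 ± 0.11, edgeR adjusted p = 1.66e-06) and the MHC class II transactivator Ciita (1.28 ± 0.10, edgeR adjusted p = 3.01e-06). The lymphotoxin receptor gene Ltbr was lower (-1.29 ± 0.12, edgeR adjusted p = 1.16e-05). Within the Aire-stage clusters, 7 were called higher and 1 lower, against 9.35% and 8.82%. Cd80, Cd40 and Ciita were also among the markers that named the Aire-stage clusters.

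Of the 20 Aire-binding and transcription genes, 0 were called higher and 7 lower in Aire-high cells, against 21% and 20.3% of all genes, among them the Ku genes Xrcc5 (-1.65 ± 0.25, edgeR adjusted p = 0.000416) and Xrcc6 (-1.40 ± 0.28, edgeR adjusted p = 0.00245). Of the 12 NuRD genes, 1 was called higher, the Chd4 paralogue Chd3 (0.33 ± 0.09, edgeR adjusted p = 0.0106), and 6 lower, among them the methyl-DNA binding gene Mbd2 (-1.82 ± 0.17, edgeR adjusted p = 1.51e-05). Within the Aire-stage clusters, 0 and 1 of the former were called higher and lower, and 0 and 3 of the latter, namely Mbd2, Gatad2a and Rbbp7, against 9.35% and 8.82% of all genes there.

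The genes of largest fitted change in Aire-high cells were Ly6g5c, Rhox12, Prdm14, Itih1 and Ldhc among those higher, all at under 1 CPM on average in Aire-zero cells. Their fold is not given, since it depends on the prior count at such levels. Rhox12 was at 3.96 to 52.5 CPM in Aire-high and at 0.0765 to 1.06 CPM in Aire-zero cells, and Ldhc at 0.532 to 16.6 CPM against 0 to 0.383 CPM. Those lower were Ovol3, Scn1a, Scarf2, Ltb4r1 and Cldn8, each at 0 in at least 1 of the 4 Aire-high samples. Scn1a was at 0 to 0.535 CPM in Aire-high and at 12.8 to 21.6 CPM in Aire-zero cells. Ovol3 spanned 0.151 to 64.5 CPM in Aire-zero cells, so that its mean rested mainly on 1 mouse. Summed Aire-stage mTEC markers were at 7915 ± 3296 CPM in Aire-zero and 14807 ± 1537 CPM in Aire-high cells, without overlap. Those of macrophages or dendritic cells were at 24.5 ± 9.99 and 89.1 ± 23.9 CPM, also without overlap. Lower without overlap in Aire-high cells were parathyroid (151.5 ± 55.7 against 1157 ± 169.8 CPM), Ccl21a mTEC (1124 ± 429.4 against 3739 ± 769.9 CPM), neuroendocrine (203.5 ± 44.7 against 535.2 ± 104.6 CPM), keratinized late mTEC (116.3 ± 11.1 against 279.4 ± 167.5 CPM), Tuft (114.2 ± 12.3 against 413.8 ± 420.6 CPM) and general epithelial markers (3370 ± 515.8 against 6138 ± 1171 CPM). The ranges of thymocyte markers (93.2 to 258.6 against 50.999 to 1507 CPM) overlapped, as did those of cTEC, microfold, ciliated, proliferation, fibroblast and endothelial markers. Their part in these results was not tested.

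**Figure D5:**
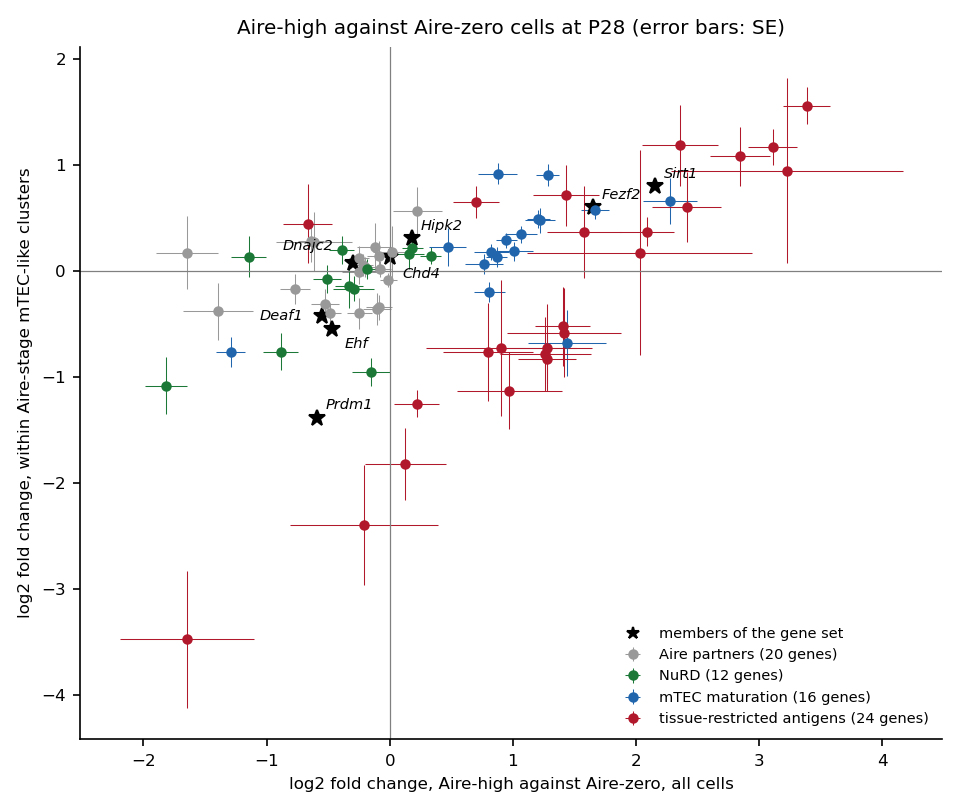
Each point is 1 gene, with its log2 fold change in Aire-high against Aire-zero cells over all P28 cells on the horizontal axis and within the Aire-stage mTEC-like clusters on the vertical axis, with SEs. Fezf2 and Sirt1 are above 0 on both axes, while the tissue-restricted antigens lie on both sides of 0 on the vertical axis.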

How the data were processed

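Libraries were prepared by CEL-Seq2. Per the study's methods and the submitters' processing notes, the authors demultiplexed with bcl2fastq 2.17.1.14, mapped with BWA 0.6.2-r126 to mouse gene models, counted molecular barcodes of sense reads and converted them by binomial statistics. The deposited values are these estimated counts of transcripts (expected counts) per gene and cell, without further normalisation.

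Each file had 192 columns, and the 96 with at least 80.0% of the transcripts were taken as its cells. Of 380 libraries, 2 were left out. Cells needed 3000 transcripts at E16.5, P0 and in the transgenic mouse at 1 year, 1500 at P28 and 1000 in the wild-type mouse at 1 year. Doublets were not removed. Transcripts were summed per mouse, rounded, and tested with edgeR 4.0.16 (quasi-likelihood, TMM, filterByExpr, Benjamini-Hochberg, adjusted p under 0.05), with DESeq2 1.42.0 as an alternative. Hprt, spike-ins and mitochondrial genes were left out. Age and genotype were fitted over 10 mice with library protocol as a term, so that groups of 1 mouse were assumed to vary like the P28 mice. The protocol term divided the non-barcoded males from the barcoded mice, so it cannot tell protocol from barcoding. Sorted samples and Aire classes had mouse as a block. Intervals for levels (Poisson) and shares (exact binomial) cover counting error only. Cells of each age and genotype were clustered with scanpy 1.11.5. Named genes were the members, fixed lists, the 5 genes most like Aire and Fezf2, and the 5 of largest change in each direction with the same sign in 4 of 4 mice. The genes and lists were chosen with earlier results of these data known.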

Additional observations from a re-analysis of the deposited data

Results flagged for a closer look

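In groups of 4 samples, a sample was picked out where its gap to the nearest other, divided by the group's range, passed Dixon's 95% critical value. Chance alone picks about 1 in 20 groups, and 3 of 44 were picked. Prdm1 at P28 was at 10.5 CPM in the barcoded male, against 4.47 to 4.93 CPM in the other 3 mice. Prdm1 in Ly51 cells was at 0.587 CPM in the non-barcoded male, which is 2 molecular barcodes, against 0 in the others. With the others at 0, any value above 0 would be picked, so that the rate of 1 in 20 does not hold for this group. Dnajc2 in Aire-high cells was at 75.4 CPM in the non-barcoded male, against 54.4, 56.97 and 57.3 CPM in the other 3 mice. No change from P28 to 1 year differed between genotypes for these genes by the test of the difference.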

How the results depend on the processing

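Over the settings tried, 789 estimates for the 9 genes were compared with the reported ones. Of these, 54 crossed into significance, 32 crossed out of it, and 1 reversed, Dnajc2 within the Aire-stage clusters (0.077). The others kept their side of the threshold, and 64 of them, called by neither fit, changed sign. Counts of called genes over the whole table moved more. The count was 6701 at E16.5, 3088 at P0, 93 at 1 year, 148 for genotype, 129 higher and 110 lower for age in transgenic mice, 1147 in Ly51 cells, 0 in UEA1 cells and 6246 in Aire-high cells. With DESeq2 it was 4775 at P0, 705 at 1 year, 859 for genotype, 1181 for age in transgenic mice, 4106 in Ly51 cells and 49 in UEA1 cells. Without a filter on low counts it was about 2.2e+02 at 1 year, 390 for genotype, about 4.8e+02 for age in transgenic mice and 1757 in Ly51 cells. Without the protocol term it was 3199 at E16.5, 431 at P0, 33 at 1 year, 1 for genotype and 4 for age in transgenic mice. With barcoded mice only it was 6131 at P0, 818 at 1 year, 2107 for genotype and 785 for age in transgenic mice. Aire-high cells gave 3818 without the mouse block (no replicate block) and 2366 within the Aire-stage clusters, a setting chosen after seeing the data; the cause was not tested.

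Leaving out 1 mouse in turn gave 3715 to 9337 at E16.5, 753 to 6407 at P0, 25 to 844 at 1 year, 4 to 2197 for genotype, 96 to 927 for age in transgenic mice, 0 to 5179 in Ly51 cells, 0 to 2310 in UEA1 cells and 4413 to 6131 in Aire-high cells. The Ly51 count was 0 without female A, female B or the 1 year mouse, and 5179 without the P0 mouse. In unsorted cells alone, a setting chosen after seeing the data, cTEC-like cells at P28 had 14.1 CPM of Aire and 130.5 CPM of Fezf2, against 7.97 and 77.4 CPM. The genotype count was 2197 without the non-barcoded wild-type male and 4 without the transgenic female. At Leiden resolution 0.5 the highest Aire was 238.7 CPM at E16.5, 869.9 CPM at P0, 761.4 CPM at P28, 619.01 CPM at 1 year and 389.99 CPM in the old transgenic mouse, and the highest Fezf2 145.1, 736.5, 856.6 and 720.9 CPM at E16.5, P0, 1 year and in the old transgenic mouse. The share of P28 cells with Aire was 29.1% when thinned to 3000 and 31.99% as deposited, and for Fezf2 61.7% and 69.9%. No paired analysis was possible because replicate numbers follow accession order; the mouse block above is the only pairing. Groups of 1 mouse, and few cells with Aire at E16.5 and P0, limit the precision.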

Other observations

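The 4 P28 libraries labelled Biological Replicate (272 cells), labelled male but with Xist in most cells and tied by the labels to no mouse, had 475.003 CPM of Aire, 797.4 CPM of Fezf2, 178.4 CPM of Sirt1 and 128.1 CPM of Ehf. Aire and Fezf2 were higher there than in any of the 4 wild-type P28 mice, Sirt1 and Ehf lay within their range, and Aire was found in 24.4% of cells thinned to 1500 molecular barcodes (exact 95% binomial interval 19.4% to 30.1%).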
